A study of Mus musculus with 6 samples.

Results

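The guide strands of the let-7 family were measured in the livers of male mice on a soy-enriched or a regular chow. The members were the mature microRNAs named let-7a-5p to let-7i-5p and miR-98-5p, taken by name as the 5′ arms that carry the let-7 seed, and 9 of the 1907 mature microRNAs in the table belonged to them. Soy-fed mice received for 4 weeks a granulated chow of 75% regular food and 25% soy bean powder, and control mice received regular granulated food alone. Both groups held 3 males of mixed background, 12 weeks of age when put on the diets per the methods, and each library came from the liver tissue of a different mouse, so hepatocytes, stellate, Kupffer, endothelial and blood cells were measured together. Which diet a library belongs to was taken from the labels alone, so every sign below has the direction the labels give. The study lists miR-145a-5p and miR-455-3p with positive fold changes in the livers of soy-fed animals. Under the labels used here their log2 fold changes of soy over regular were -0.96 and -1.98 (edgeR adjusted p = 0.295 for both). Why these directions differ was not tested. The question was whether the soy diet alters the microRNAs of the liver. The soy libraries held 10032094 to 12762916 microRNA reads and the regular libraries 5727546 to 10325712, the lowest of them in regular replicate 3.

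MicroRNAs are short RNAs that lead Argonaute proteins to their messenger RNA targets, which are then translated less or degraded, and the bases called the seed dominate the choice of target. The let-7 family is among the most conserved of all microRNA families. Its guide strands are scarce in embryonic cells, where the RNA-binding protein LIN28 blocks the maturation of their precursors, and plentiful in differentiated tissues such as adult liver. Known targets in mammals include the growth regulators Hmga2, Igf2bp1 and the Ras genes, and in mice the balance of Lin28 and let-7 is known to act on insulin sensitivity and glucose metabolism.

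The mature sequences are shown first because they decide both what the strands may target and how well sequencing reads can tell them apart. They were taken from RefSeq (GRCm38.p6), which held 9 of the 9 members, and are written 5′ to 3′ with the seed, bases 2 to 8, in capitals.
mmu-let-7a-5p: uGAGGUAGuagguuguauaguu
mmu-let-7b-5p: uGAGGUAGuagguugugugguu
mmu-let-7c-5p: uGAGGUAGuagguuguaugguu
mmu-let-7d-5p: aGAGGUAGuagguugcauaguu
mmu-let-7e-5p: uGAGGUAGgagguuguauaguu
mmu-let-7f-5p: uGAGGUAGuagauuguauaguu
mmu-let-7g-5p: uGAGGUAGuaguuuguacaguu
mmu-let-7i-5p: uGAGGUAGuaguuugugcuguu
mmu-miR-98-5p: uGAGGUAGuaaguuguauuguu

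All 9 members were 22 bases long and shared the seed, so a read count needed no scaling by length before levels were compared between them. Outside the seed they differed by few bases. Counted from 1 at the 5′ end of let-7a-5p, with its base first, let-7c-5p differed by A19G, let-7e-5p by U9G and let-7f-5p by G12A. The differences of let-7b-5p were A17G and A19G, those of let-7d-5p U1A and U16C, those of let-7g-5p G12U and U18C, and those of miR-98-5p G11A and A19U. The strand farthest from let-7a-5p was let-7i-5p, with G12U, A17G, U18C and A19U. Of the 36 possible pairs of members 4 differed by a single base (let-7a with let-7c, let-7e and let-7f, and let-7b with let-7c), and the largest distance was 6 bases, between let-7d-5p and let-7i-5p. GC content ran from 7 of 22 bases in let-7f-5p and miR-98-5p to 10 of 22 in let-7b-5p.

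The 9 guides come from 12 hairpins on 7 chromosomes, and let-7a, let-7c and let-7f are each encoded by more than a single hairpin, whose guide strands cannot be told apart by sequence. On chromosome 13 the hairpins of let-7d (48536012 to 48536114), let-7f-1 (48537829 to 48537917) and let-7a-1 (48538179 to 48538272) lie on the minus strand, with 1714 and 261 bp between neighbours, and overlap exons of the long noncoding RNA 6720427I07Rik (positions here and below are GRCm38, genes are from GENCODE M21). On chromosome 15 those of let-7c-2 (85706603 to 85706697) and let-7b (85707319 to 85707403) lie 621 bp apart on the plus strand, over exons of the noncoding Lncppara. let-7f-2 (X, 151912346 to 151912428) and miR-98 (X, 151913214 to 151913321) lie 785 bp apart on the plus strand in intronic sequence of the ubiquitin ligase gene Huwe1. let-7c-1 (chromosome 16, 77599657 to 77599750) lies 656 bp from miR-99a in an intron of Mir99ahg. let-7e (chromosome 17, 17830352 to 17830444) lies 367 bp from miR-125a in an intron of Spaca6, and let-7a-2 (chromosome 9, 41536716 to 41536811) lies 5211 bp from miR-100 in introns of noncoding genes. let-7g (chromosome 9, 106178840 to 106178927) lies in an intron of Wdr82, and let-7i (chromosome 10, 122985640 to 122985724) overlaps an exon of the transcribed pseudogene D630033A02Rik.

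Near-identical strands can exchange reads where a mismatch is tolerated, and how the authors' assignment treated such reads is not given in the sources used here. Names that share a whole sequence can be looked up in the table. The passenger strands let-7a-1-3p and let-7c-2-3p have the same mature sequence, shown because reads cannot tell these names apart.
mmu-let-7a-1-3p and mmu-let-7c-2-3p: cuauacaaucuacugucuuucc
let-7a-1-3p had 0 reads in all 6 libraries and let-7c-2-3p at most 1 read in any. How reads that match both names were counted is not given, so these counts were not taken as levels. No 2 guide strands are identical, and whether reads moved between guides 1 base apart was not tested.

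Further names with a let-7-like 5′ end were almost without reads. In RefSeq 11 mouse mature names carry the seed, the 9 members and the 2 shorter sequences let-7k (19 bases) and miR-1961 (17 bases), shown here beside let-7j, whose seed has another last base.
mmu-let-7k: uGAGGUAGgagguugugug
mmu-miR-1961: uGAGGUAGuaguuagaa
mmu-let-7j: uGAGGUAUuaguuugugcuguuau
let-7k had 1 read in soy replicate 3 and 0 elsewhere, miR-1961 had 0 reads throughout, and let-7j had 3, 5 and 4 reads in soy and 1, 5 and 3 in regular libraries. The limit that 0 reads sets is 3 reads of a library's total, between 0.235 and 0.524 reads per 1000000, and covers counting error only. Among the 1623 of 1907 names that had a sequence, the 9 members therefore held nearly all reads assigned to this seed. The seed of the remaining names was not looked at.

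Together the guide strands took a large part of the liver microRNA reads under both diets. Their share of all reads was 6.42%, 7.99% and 8.90% in soy libraries and 7.14%, 8.87% and 8.01% in regular libraries. The means were 7.77% ± 1.26 in soy and 8.01% ± 0.865 in regular livers (SD, n = 3 each), and the ranges overlapped. The difference of -0.239 percentage points turned to 0.437 without soy replicate 1, to 0.193 without regular replicate 2 and to 0.122 as a share of reads without miR-22-3p and miR-192-5p. In tissue of mixed cells, fewer cells of a type and less RNA per cell cannot be told apart in such values.

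let-7f-5p dominated the family in every library. It made up 75.3%, 77.2% and 78.0% of the family's reads in soy and 72.1%, 79.5% and 72.1% in regular libraries, and by mean level over the 6 libraries it ranked 4th in the whole table. These levels are CPM, reads per 1000000 of the library size after scaling by TMM, a method that assumes most microRNAs to be equal between libraries. In soy libraries let-7f-5p stood at 50183, 61571 and 70726 CPM, and in regular libraries at 51548, 72801 and 52916 CPM. The highest and the lowest of these 6 values came from different diets, and the ranges overlapped. let-7a-5p, the strand whose sequence is the same from worms to humans, came next at 6155, 7081 and 7233 CPM in soy and 8716, 7113 and 7104 CPM in regular libraries. Regular replicate 1 alone stood above all soy libraries by a wide margin. The reads of let-7f-5p were 8.15, 8.70 and 9.78 times those of let-7a-5p in soy and 5.91, 10.2 and 7.45 times in regular libraries. Ligation and amplification favour some ends over others and were not corrected, so these are ratios of reads.

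The order below let-7a-5p was clear for some neighbours and not for others. let-7c-5p (mean of the 6 libraries 3768 CPM) was above let-7g-5p (3359 CPM) in 5 of 6 libraries, with overlapping ranges, and let-7i-5p (1560 CPM) was above let-7d-5p (1538 CPM) in 4 of 6, so neither of these neighbours was separated beyond the spread. let-7g-5p was above let-7i-5p, let-7d-5p above let-7b-5p (895.1 CPM) and let-7b-5p above let-7e-5p (396.2 CPM) in 6 of 6 libraries, with ranges that did not meet. let-7e-5p was above miR-98-5p (228.5 CPM) in 6 of 6 libraries, although the ranges over all libraries touched (284.8 to 645.9 and 180.2 to 306.1 CPM). Relative to its mean, let-7e-5p varied most over the 6 libraries, with a coefficient of variation of 34.2%, and let-7a-5p least, with 11.4%.

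**Figure D1:**
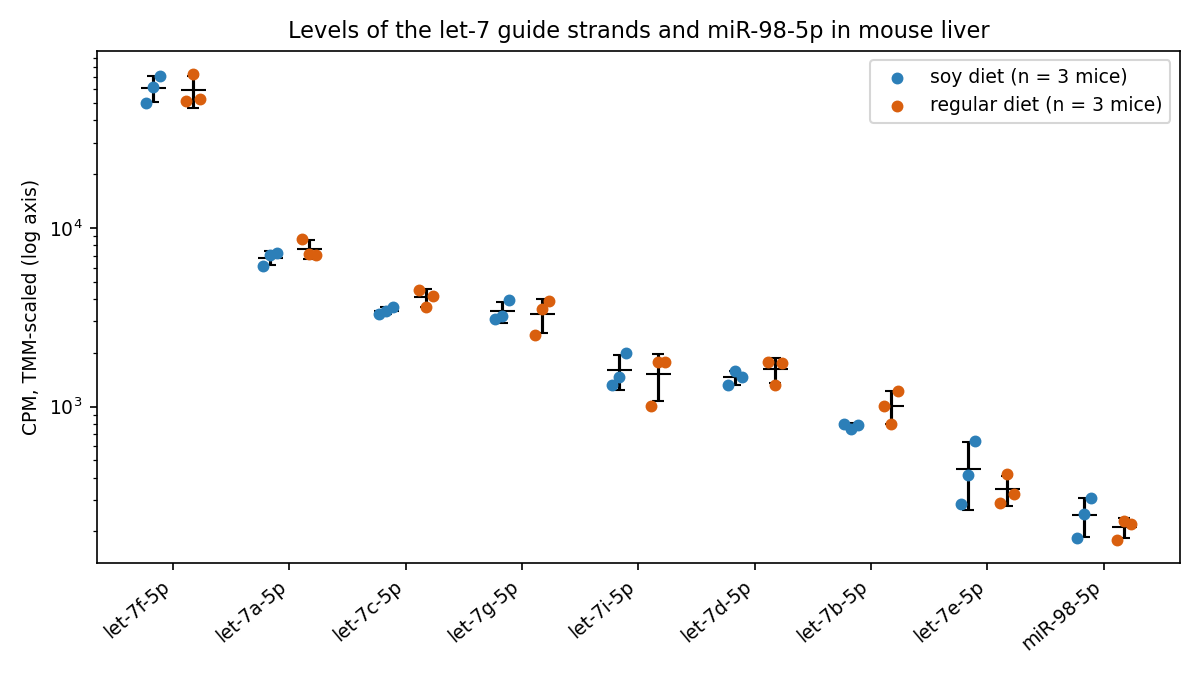
CPM on the TMM-scaled library size (log axis) of each guide strand, ordered by mean level, with a point for each of 3 soy mice (left of each pair) and 3 regular mice (right), a dash for the mean and a bar for the SD. let-7f-5p stands at 50183 to 72801 CPM over both diets, above every other member, and the diets overlap for each strand except let-7b-5p, whose gap is from 797.4 to 800.1 CPM.

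No guide strand passed the test between the diets. edgeR's quasi-likelihood test, fitted on the 437 microRNAs that reached 4 reads in 3 or more libraries and adjusted over all of them by Benjamini and Hochberg, called 0 of the 9 members, beside 0 of 437 microRNAs (0%) in the table. At an unadjusted p under 0.05 it gave 0 of 9 members, beside 22 of 437 microRNAs (5.03%), and 0 members were called by DESeq2, by limma-voom or by limma fitted to the deposited log2 table. The log2 fold change of soy over regular was above 0 for 5 members and below 0 for 4, beside 48.5% of all microRNAs above 0, and the members' median was 0.04 beside -0.02 over all microRNAs tested. Adjusted p-values of the members in edgeR ran from 0.941 to 0.982. A fold change beyond 2 in either direction was outside the 95% interval of 8 of the 9 members, the exception being let-7e-5p.

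let-7b-5p had the smallest unadjusted p of the family and ranked 36th of 437. It stood at 797.4, 748.7 and 790.4 CPM in soy and 1009, 800.1 and 1225 CPM in regular libraries. All soy values were lower than all regular ones, but soy replicate 1 and regular replicate 2 were almost level. The means were 778.8 ± 26.3 CPM in soy livers and 1011 ± 212 CPM in regular livers (SD, n = 3 each), a log2 fold change of -0.38 ± 0.19 (SE) with a 95% interval from -0.80 to 0.05 (edgeR adjusted p = 0.941). It was the 1 member of 9 without overlap of the CPM ranges, beside 12.8% of all microRNAs (5.49% with soy lower and 7.32% with soy higher). As a share of all reads, without TMM scaling, the soy libraries spanned 0.0750% to 0.07755% and the regular ones 0.07753% to 0.134%, so that the groups then overlapped. The log2 fold change was -0.154 without regular replicate 3. With a library left out ranges part more easily: let-7b-5p and miR-98-5p did not overlap without soy replicate 1, beside 24.7% of all microRNAs. let-7a-5p, let-7b-5p and let-7c-5p did not without soy replicate 3, beside 20.4%, and let-7b-5p, let-7c-5p and let-7d-5p did not without regular replicate 2, beside 22.4%.

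let-7c-5p, a single base from let-7b-5p and encoded beside it on chromosome 15, had values of the same kind. It stood at 3289, 3439 and 3615 CPM in soy and 4492, 3597 and 4177 CPM in regular libraries, where regular replicate 2 fell among the soy values. The log2 fold change was -0.25 ± 0.15 (SE), with an interval from -0.58 to 0.09 (edgeR adjusted p = 0.982), and it was -0.0784 without regular replicate 1. let-7a-5p averaged 6823 ± 583 CPM in soy livers and 7644 ± 928 CPM in regular livers (SD, n = 3 each; log2 fold change -0.16 ± 0.15 SE), and the value was 0.035 without regular replicate 1. let-7d-5p, the only member that begins with A, stood at 1318, 1577 and 1474 CPM in soy and 1778, 1321 and 1761 CPM in regular libraries. The diets overlapped through regular replicate 2, and the log2 fold change of -0.15 ± 0.18 (SE) was 0.0142 without regular replicate 1.

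let-7e-5p and miR-98-5p, the least abundant members, had the largest positive fold changes and both followed soy replicate 3. let-7e-5p stood at 284.8, 412.4 and 645.9 CPM in soy and 290.2, 418.3 and 325.3 CPM in regular libraries. Its soy values lay both below and above all regular values. The log2 fold change was 0.38 ± 0.29 (SE), with an interval from -0.27 to 1.03 (edgeR adjusted p = 0.982), and it was 0.0159 without soy replicate 3, 0.619 without soy replicate 1 and 0.602 without regular replicate 2. miR-98-5p stood at 183.7, 249.5 and 306.1 CPM in soy and 180.2, 230.1 and 221.5 CPM in regular libraries, with a log2 fold change of 0.23 ± 0.23 (SE) which was 0.0402 without soy replicate 3, 0.4 without soy replicate 1 and 0.362 without regular replicate 2.

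The remaining members lay close to 0 and their sign depended on the setting. let-7f-5p averaged 60827 ± 10292 CPM in soy livers and 59088 ± 11895 CPM in regular livers (SD, n = 3 each; log2 fold change 0.04 ± 0.18 SE, interval -0.35 to 0.44). let-7g-5p stood at 3081, 3217 and 3930 CPM in soy and 2508, 3535 and 3879 CPM in regular libraries (0.04 ± 0.19 SE). let-7i-5p, which is 2 bases from let-7g-5p, stood at 1325, 1470 and 1997 CPM in soy and 1010.5, 1769 and 1786 CPM in regular libraries (0.07 ± 0.25 SE). For both strands regular replicate 1 was the lowest of the 6 libraries and the highest was soy replicate 3. The sign of let-7f-5p and let-7g-5p turned when total reads served as the only scaling, and that of let-7f-5p, let-7g-5p and let-7i-5p turned without soy replicate 3.

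**Figure D2:**
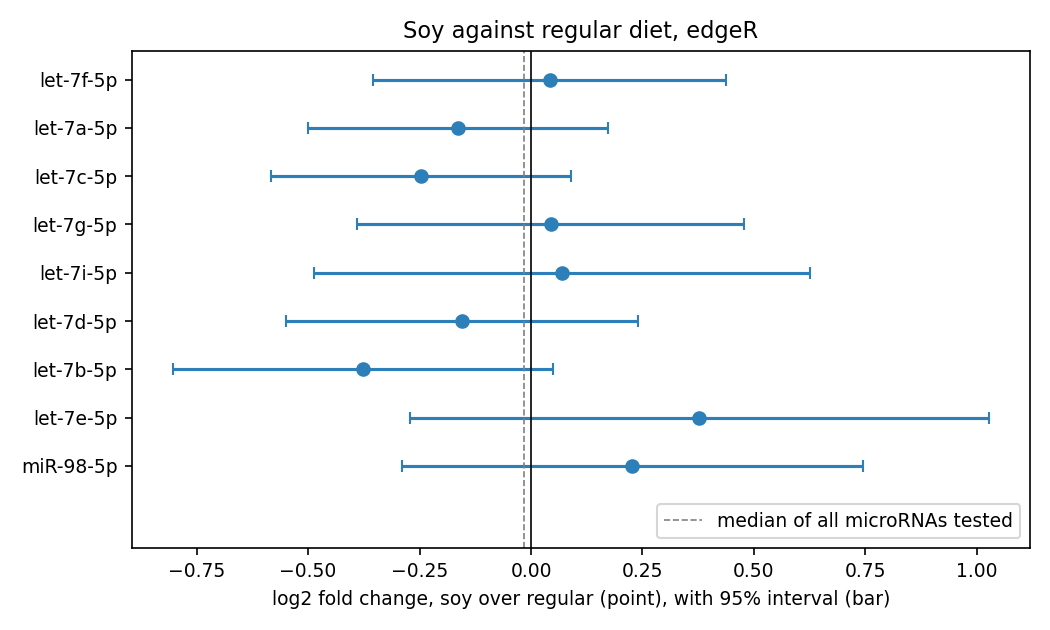
Log2 fold change of soy over regular for each guide strand (points) with the 95% interval from edgeR's fit (bars), ordered by mean level, and the median of all 437 microRNAs tested as a dashed line. Every interval holds 0, and the points run from -0.38 for let-7b-5p to 0.38 for let-7e-5p.

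The make-up of the family was compared as the share of each member in the family's own reads, a value that no scaling between libraries can alter. let-7f-5p made up 76.8% ± 1.35 in soy and 74.6% ± 4.28 in regular livers (SD, n = 3 each; two-sided exact permutation p = 0.4). let-7a-5p followed with 8.70% ± 0.652 in soy and 9.88% ± 2.22 in regular livers (exact permutation p = 0.5), and let-7c-5p with 4.41% ± 0.484 in soy and 5.30% ± 1.22 in regular livers (exact permutation p = 0.4). let-7g-5p held 4.33% ± 0.296 in soy and 4.22% ± 0.942 in regular livers (exact permutation p = 0.9). let-7i-5p, let-7d-5p, let-7e-5p and miR-98-5p held on average 2.01%, 1.86%, 0.552% and 0.309% of the family in soy and 1.93%, 2.11%, 0.435% and 0.268% in regular livers. let-7b-5p held 0.871% to 1.197% in soy and 0.874% to 1.67% in regular libraries. The diets overlapped for each of the 9 shares, and the smallest of 9 p-values was 0.2, for miR-98-5p, or 0.72 when adjusted over these 9 tests (exact permutation). With 3 mice against 3 this test cannot give less than 0.1. Without regular replicate 2, in which let-7f-5p had its highest share, the shares of let-7a-5p, let-7b-5p, let-7c-5p, let-7d-5p and let-7f-5p no longer overlapped. Without soy replicate 1 those of let-7e-5p and miR-98-5p did not overlap, and without regular replicate 3 those of let-7g-5p and miR-98-5p. A family share is not defined for other microRNAs. Their CPM ranges, an unlike measure, parted for 22.4% of all microRNAs without regular replicate 2 and for 24.7% without soy replicate 1. No such value was worked out without regular replicate 3. By CPM the members that parted were let-7b-5p, let-7c-5p and let-7d-5p without regular replicate 2. They were let-7b-5p and miR-98-5p without soy replicate 1, and let-7b-5p alone without regular replicate 3. Shares of a family also depend on each other, so these strands are not separate observations.

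Libraries of the same diet also differed from each other, and some of these differences parted the family. Each strand was set against its own mean over the 6 libraries on the log2 scale. In soy replicate 1 all 9 members were below their means, by 0.11 to 0.41 log2 units. In regular replicate 1 let-7a, let-7b, let-7c and let-7d were above theirs, by 0.20 to 0.28, whereas let-7e, let-7f, let-7g, let-7i and miR-98 were lower than theirs, with deviations from -0.59 to -0.20. Soy replicate 3 and regular replicate 2 were of the opposite kind. In soy replicate 3 let-7e, let-7f, let-7g, let-7i and miR-98 were above their means by 0.24 to 0.77, and let-7a, let-7b, let-7c and let-7d ran from -0.16 to 0.01. In regular replicate 2 the same 5 strands were above theirs by 0.03 to 0.30 and the other 4 were below, from -0.21 to -0.02. Regular replicate 3 did not part the same way: let-7b (0.48), let-7c (0.16), let-7d (0.21), let-7g (0.22) and let-7i (0.23) were above their means there, and let-7a (-0.02), let-7e (-0.22), let-7f (-0.16) and miR-98 (-0.02) were below. In soy replicate 2 both sets held strands above and below their means. These 2 sets of strands were formed after the values were seen and are a description with no test.

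**Figure D3:**
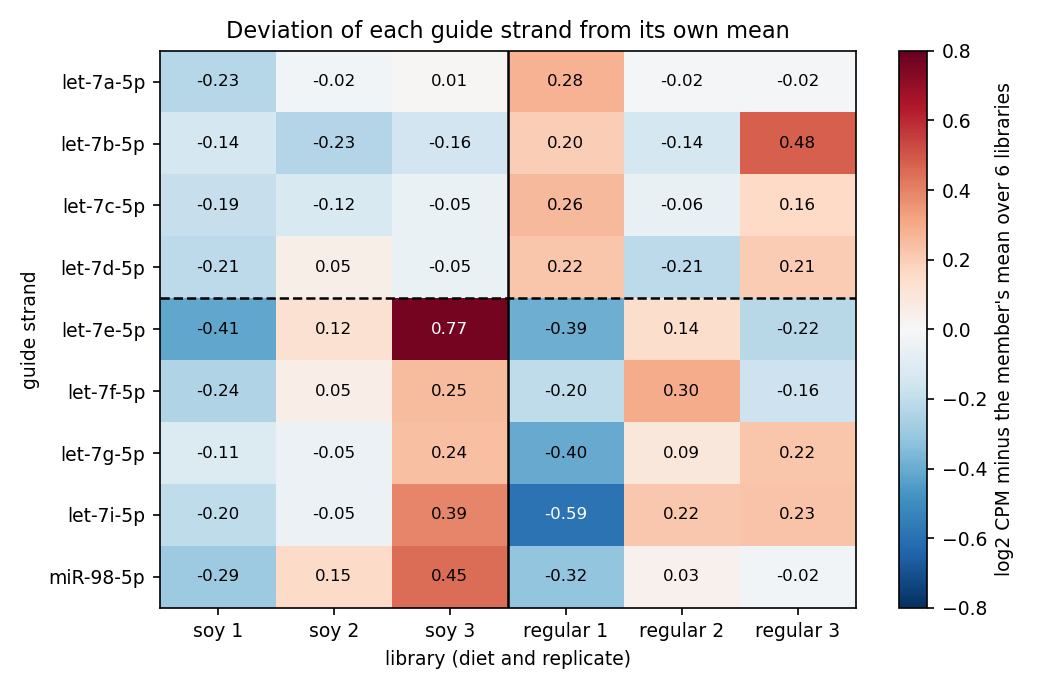
Log2 CPM of each guide strand minus its own mean over the 6 libraries (colour and printed value), with soy libraries left of the vertical line and regular libraries right of it. Above the dashed line let-7a, let-7b, let-7c and let-7d are high in regular replicate 1 (0.20 to 0.28), and below it the remaining strands are low there (-0.59 to -0.20) and high in soy replicate 3 (0.24 to 0.77).

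How closely 2 strands moved together was measured by the SD over the 6 libraries of the log2 ratio of their levels, where 0 means a constant ratio. The closest pair of 36 was let-7a-5p with let-7c-5p (SD 0.098), which are 1 base apart, and the next were let-7c-5p with let-7d-5p (0.106, 3 bases) and let-7g-5p with let-7i-5p (0.128, 2 bases). Within let-7a, let-7b, let-7c and let-7d the median SD of 6 pairs was 0.153, within the other 5 strands it was 0.22 over 10 pairs, and between these sets it was 0.413 over 20 pairs. These sets were formed from the same values, so a lower SD within than between them follows from how they were made. By sequence distance the median SD was 0.227 for the 4 pairs 1 base apart, 0.303 for 10 pairs 2 apart, 0.364 for 11 pairs 3 apart and 0.342 for 9 pairs 4 apart, with wide ranges. let-7a-5p with let-7e-5p, also a single base apart, had an SD of 0.477 and ranked 32nd of 36, and the 4 pairs 1 base apart ran from 0.098 to 0.477, and the 9 pairs 4 bases apart ran from 0.186 to 0.451.

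Of the 5 pairs with hairpins at a shared locus, 4 had an SD below the median of all 36 pairs, 0.340. let-7a-5p and let-7d-5p, from the chromosome 13 hairpins, had an SD of 0.141, and their neighbour let-7f-5p had 0.288 with let-7a-5p and 0.364 with let-7d-5p. let-7b-5p with let-7c-5p (chromosome 15) had 0.166 and let-7f-5p with miR-98-5p (X) had 0.174. The strands encoded near let-7 outside the family had SDs of 0.222 to 0.592, the farthest being miR-125b-1, with 45114 bp to let-7a-2. let-7c-5p with miR-99a-5p had an SD of 0.222, let-7a-5p with miR-125b-5p 0.242 and with miR-100-5p 0.405, and let-7e-5p with miR-125a-5p 0.518 and with miR-99b-5p 0.592. let-7a, let-7c and let-7f each sum over hairpins at different loci, so a locus is only part of their reads. The same may hold for miR-125b-5p, since passenger strands named miR-125b-1-3p and miR-125b-2-3p were both among the microRNAs tested. None of the 36 log2 ratios within the family was free of overlap between the diets.

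**Figure D4:**
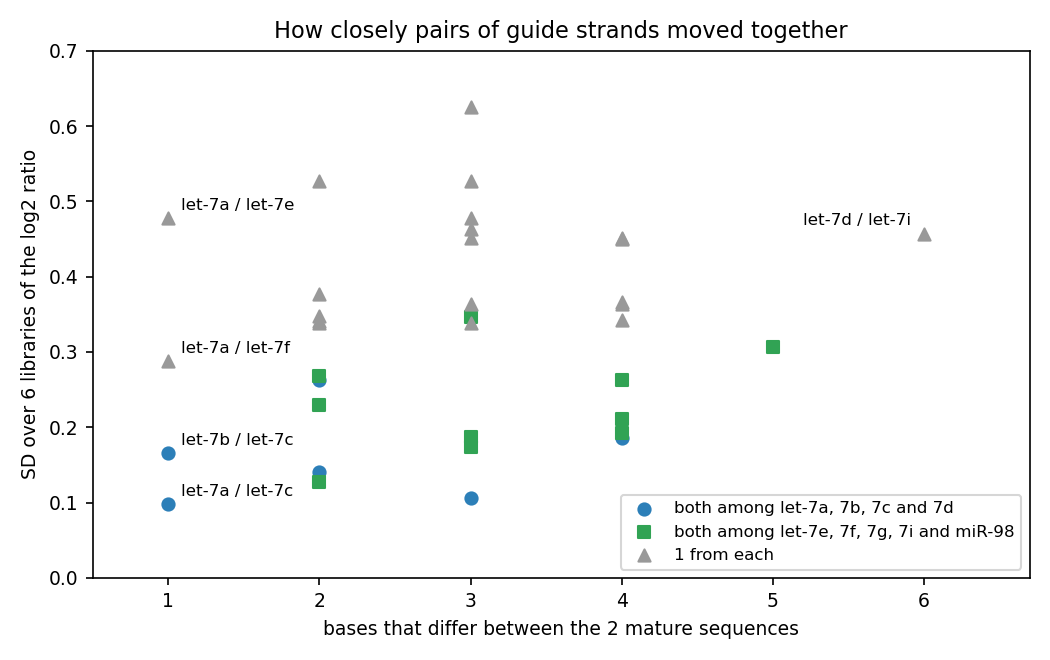
SD over the 6 libraries of the log2 ratio of 2 guide strands (vertical axis) against the number of bases by which they differ (horizontal axis), for all 36 pairs of members, with the set to which each strand belongs shown by colour and shape. Pairs 1 base apart run from 0.098 for let-7a with let-7c to 0.477 for let-7a with let-7e. The sets were formed from the same values, so their contrast is no separate result.

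The 5 microRNAs neighbouring let-7 hairpins passed edgeR's test in 0 of 5 cases. miR-125a-5p, the partner of let-7e, averaged 3735 ± 176 CPM in soy livers and 2804 ± 754 CPM in regular livers (SD, n = 3 each; log2 fold change 0.41 ± 0.20 SE, adjusted p = 0.941). The log2 fold changes of miR-100-5p, miR-99b-5p, miR-99a-5p and miR-125b-5p were 0.27, 0.25, 0.00 and -0.19, each with an adjusted p of 0.982 or 0.998.

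In 8 of the 9 families of arms the guide outnumbered its passenger strand. The passengers of let-7a had 0 to 18 reads in a library, those of let-7c 1 to 50 and those of let-7f 25 to 125. The first 2 of these counts include the identical let-7a-1-3p and let-7c-2-3p shown above, so they may leave out reads that match both names. The passengers of let-7e, let-7g and let-7i had 0 to 109, 0 to 42 and 47 to 90 reads. Over all libraries the guide of miR-98 had 6.63 times the reads of its passenger and that of let-7b 17.9 times. let-7d was the exception, and its passenger is shown for that reason.
mmu-let-7d-3p: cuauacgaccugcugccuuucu
let-7d-3p had 22844, 56890 and 25832 reads in soy and 45261, 33764 and 24054 in regular libraries, more than its guide in every library, with guide to passenger ratios of 0.279 to 0.709.

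Outside the family, miR-30e-5p followed the summed level of the guide strands most closely over the 6 libraries, among 100 other microRNAs of at least 100 CPM on average. The SD of its log2 ratio to the family was 0.073, and it stood at 7908, 9584 and 9773 CPM in soy and 7893, 11205 and 8641 CPM in regular libraries. miR-101b-3p (SD 0.0916), miR-103-3p (0.141), miR-122-3p (0.143) and miR-30a-5p (0.143) came next. let-7f-5p makes up most of the family's sum, so this likeness is mainly to let-7f-5p.

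Values of a list of cell type markers are given beside these results. Markers of hepatocytes (miR-122-5p, miR-192-5p and miR-148a-3p) summed to 279210 to 328044 CPM in soy and 261679 to 344513 CPM in regular libraries, and the liver-specific miR-122-5p had at least 161854 reads in every library. miR-192-5p made up most of this sum. Its log2 fold change was 0.11, whereas that of miR-122-5p was -0.37 and that of miR-148a-3p -0.44 (edgeR adjusted p = 0.982, 0.941 and 0.728). Of the neural markers miR-124-3p had 0 reads throughout, and miR-9-5p had 11 reads in regular replicate 3 alone. The summed leukocyte markers ran from 1392 to 1998 CPM in soy and from 756.1 to 1367 CPM in regular libraries, and the endothelial markers from 20115 to 21088 CPM in soy and 14482 to 17936 CPM in regular libraries, without overlap in either case. Among all microRNAs taken singly, 12.8% did not overlap either. Single markers differed: miR-126a-5p made up most of the endothelial sum (log2 fold change 0.37, edgeR adjusted p = 0.728), and miR-126a-3p stood at 1580 to 1956 CPM in soy and 1447 to 1961 CPM in regular libraries. Among the leukocyte markers miR-142a-5p (log2 fold change 0.75), miR-150-5p (0.86) and miR-223-3p (0.36) were above 0 and miR-142a-3p was at -0.07, all with edgeR adjusted p of 0.696 or more. The erythroid sum (1172 to 1202 CPM in soy, 651.1 to 1571 CPM in regular) and the mesenchymal sum (18562 to 24838 CPM in soy, 15794 to 23647 CPM in regular) overlapped, though miR-143-3p made up nearly all of the mesenchymal sum and miR-145a-5p in it stood at 45.2 to 55.0 CPM in soy and 84.2 to 106.1 CPM in regular libraries, and so did the muscle sum (3.42 to 12.0 CPM in soy, 4.90 to 6.88 CPM in regular). The 2 pancreatic markers summed to 13.8 to 160.3 CPM in soy and 8.80 to 64.3 CPM in regular libraries. miR-375-3p, of endocrine cells, had 170, 1011 and 1544 reads in soy and 90, 496 and 402 in regular libraries. Scaled for depth it ran from 13.8 to 154.7 CPM in soy and from 8.80 to 64.3 CPM in regular libraries, where regular replicate 3 was highest. miR-217-5p, of acinar cells, had 56 reads in soy replicate 3, 4 in regular replicate 2 and 0 elsewhere. Soy replicate 3 was also the library in which let-7e-5p, let-7g-5p, let-7i-5p and miR-98-5p were highest, whereas let-7f-5p was highest in regular replicate 2. The part of other cell types in the let-7 values was not tested.

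The relation of base composition to the deviations differed between libraries. Over the 93 microRNAs of at least 100 CPM with a RefSeq sequence, of 109 such microRNAs, the rank correlation of GC content with the deviation from the mean was 0.458 in regular replicate 1, -0.416 in regular replicate 2 and -0.36 in soy replicate 3, and between 0.0683 and 0.0789 in the remaining libraries. Within the 9 members the same value was 0.413, -0.65 and -0.474 in soy replicates 1, 2 and 3, and 0.0791, -0.483 and 0.562 in regular replicates 1, 2 and 3. These describe microRNAs that share libraries and depth, and the part of base composition in the let-7 values was not tested.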

How the data were processed

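Small RNA libraries (TruSeq) from the livers of 6 mice were read as single ends on an Illumina NextSeq, per the labels. The authors assigned reads to mature microRNAs, with an aligner, genome and miRBase version not given in the sources used here. The deposited count table holds unnormalized read counts. A second deposited table gives log2 values, scaled between libraries and absent under 4 reads. DESeq2 scaling is named for them in the methods, but when checked they equalled scaling by totals to within 4.97e-14. They served only as an alternative.

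Diets were compared by quasi-likelihood in edgeR 4.0.16 under R 4.3.3, with TMM, on microRNAs that reached 4 reads in 3 or more libraries, Benjamini-Hochberg over 437 microRNAs, threshold 0.05, no covariate. The study names DESeq2, which was an alternative (DESeq2 1.42.0), with limma 3.58.1. The SE is the fold change over the square root of the quasi-likelihood F. Shares were compared by two-sided exact permutation over 20 assignments (scipy 1.17.1). Further alternatives were other scalings, other filters, the replicate number as a block and each library left out. Replicates differed by a chi-square per degree of freedom of at least 233.5, far beyond sampling noise.

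The members, the lists and the alternatives were chosen with earlier results of these data known. Named were the members, other names with the seed, their passenger strands, 5 cluster neighbours, the 5 microRNAs nearest to the family's summed level and a list of cell type markers. Sequences were matched by name, for 384 of 437 tested microRNAs. The number of columns without a sample was 0. Intervals cover counting error and the spread between libraries, in which mice and library preparation cannot be told apart. A bias of amplification shared by all libraries is not covered.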

Additional observations from a re-analysis of the deposited data

How the results depend on the processing

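The 9 guide strands were fitted under 15 alternatives each, and in 0 of these 135 fits was a member called, the smallest adjusted p being 0.573 (let-7b-5p without regular replicate 2). At an unadjusted p under 0.05, let-7e-5p passed without a filter on low counts (beside 36 of 716 microRNAs) and without soy replicate 1 (22 of 407), and let-7b-5p without regular replicate 2 (30 of 408). The sign of let-7b-5p, let-7c-5p, let-7e-5p and miR-98-5p turned in none of these fits, and 10 of the 135 fits turned the sign of the other 5. With total reads alone let-7f-5p was at -0.00281 and let-7g-5p at -0.0165, and in limma on the deposited log2 values let-7f-5p was at -0.00641. With a library left out the log2 fold change ran from -0.209 to 0.035 for let-7a-5p, from -0.213 to 0.0142 for let-7d-5p, from -0.0812 to 0.285 for let-7f-5p, from -0.0715 to 0.241 for let-7g-5p, from -0.124 to 0.268 for let-7i-5p, from -0.45 to -0.154 for let-7b-5p, from -0.282 to -0.0784 for let-7c-5p, from 0.0159 to 0.619 for let-7e-5p and from 0.0402 to 0.4 for miR-98-5p. The difference of the family's share of all reads ran from -0.805 to 0.437 percentage points. The cause was not tested. In the whole table edgeR called 0 microRNAs, 8 without a filter on low counts and 5 with the replicate block, and DESeq2 called 2. Leaving out a library gave 0 to 5 members whose family shares did not overlap, and these shares depend on each other. A like value over all microRNAs does not exist. By CPM, 20.4% to 24.7% of all microRNAs did not overlap in the settings where this was counted. Whether the replicate numbers pair the mice cannot be told from these values. Deviations of same-numbered libraries correlated at 0.5, -0.02 and 0.26, the first of these being the largest for any soy and regular library. Even so, 2 of 3 soy libraries correlated best with another number. With 3 mice a group, the 95% interval of a member reached up to 0.65 log2 units from its estimate.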

Other observations

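Names that share a whole mature sequence had counts at or near 0 beyond let-7 as well. How reads that match more than 1 name were counted is not given. Among the names of the table matched to RefSeq, 4 groups of 9 names had identical sequences, and the largest count of any of them in a library was 30 reads. They were let-7a-1-3p with let-7c-2-3p, miR-199a-3p with miR-199b-3p, miR-344e-5p with miR-344h-5p, and miR-465a-3p with miR-465b-3p and miR-465c-3p. The miR-199 pair had 30 reads in soy replicate 1, 16 in regular replicate 3 and 0 in the remaining libraries. miR-199a-5p had 518 to 1622 reads in a library, and the counts of the pair were not taken as its level.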
